A study of Mus musculus with 4 samples.

Results

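The genes described here carry fatty acid oxidation, the stepwise breakdown of fatty acids for energy, together with a small set of genes that peroxisome proliferator-activated receptors (PPARs) are known to switch on. They are 32 genes chosen by symbol from the known pathway, and all 32 were found among the 25124 gene symbols of the deposited table. Of these, 18 encode mitochondrial enzymes, 6 peroxisomal enzymes, 3 enzymes found in both organelles, and 5 are PPAR targets or a coactivator. RNA was sequenced from airway epithelial cells sorted by flow cytometry from the lungs of wild-type (WT) C57BL/6 mice that had all been sensitised to house dust mite (HDM), an allergen source used to model asthma. One group was HDM + SCD1 inhibitor, given a blocker of stearoyl-CoA desaturase 1, which turns saturated into monounsaturated fatty acids, and the other was HDM + DMSO, the solvent control, with 2 samples in each. The inhibitor's name, its dose and timing, and the age and sex of the mice are stated in none of the sources used here, and mice without HDM were not analysed here. Nothing in the labels says that the 2 samples of a group came from separate mice, so the p values measure only the spread between these samples, which may be technical.

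Long-chain fatty acids enter mitochondria bound to carnitine, through a carnitine acyltransferase on the outer membrane, a carrier in the inner membrane and a second acyltransferase inside. There each turn of the cycle uses an acyl-CoA dehydrogenase, a hydratase, a hydroxyacyl-CoA dehydrogenase and a thiolase. The electrons of the acyl-CoA dehydrogenase step leave through the electron transfer flavoprotein. Peroxisomes shorten very long and branched chains with their own enzymes and pass the products to mitochondria. PPARs bind DNA as partners of retinoid X receptors and are activated by fatty acids. In liver and muscle they raise many genes of both routes. In the lung, alveolar type 2 cells, which make surfactant lipid, and club cells, the secretory cells of the small airways, are known for active lipid handling.

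Each library held 24591122 to 27013663 reads assigned to genes. Values are normalised reads, the read count of a gene divided by a size factor of its library, and a log2 fold change is on the scale log2(value + 25.8), where 25.8 normalised reads equal 1 CPM, a read count scaled to a fixed library size. A gene was called at an adjusted p under 0.05 in limma over 13810 tested genes, and 247 (1.79%) were. All 32 members passed the floor on low values, a mean of 25.8 over the 4 samples. The markers common to epithelium were high in every sample, with Epcam at 6275 and 6732 normalised reads with the inhibitor and 5026 and 6466 with DMSO. Goblet cell markers were lower with the inhibitor for 8 of 8 tested genes, where 49.3% of all tested genes were. Of these 8, limma called 6, while edgeR called only Fcgbp (adjusted p = 0.0148). DESeq2 called Fcgbp, Muc5b, Clca1 and Tff2. The summed value of the goblet markers was 19182 to 37168 normalised reads with the inhibitor, against 80931 to 106541 with DMSO.

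No member was called. With an unadjusted p under 0.05 in limma there were 5 of 32 members (15.6%), a share near the 14.1% of all tested genes. The 5 were Ppargc1a, Ehhadh and Pdk4, higher with the inhibitor, and Cpt2 and Hsd17b4, lower with it. The edgeR test on the recovered reads called 0 members, where it called 0.0654% of the 15299 genes it tested. It gave 5 members an unadjusted p under 0.05, where 12.2% of those genes had one. DESeq2 likewise called 0 members, against 5.67% of the 8418 genes to which it gave an adjusted p. It gave 5 members an unadjusted p under 0.05, against 16.3% of those 8418 genes. Angptl4 had no adjusted p in DESeq2. Over all 32 members the median log2 fold change was -0.085, with 14 positive and 18 negative, beside a median of 0.0056 over all tested genes. The median size of the difference, without its sign, was 0.16 for the members and 0.23 for all tested genes. In bulk RNA, fewer cells of a type and less RNA per cell cannot be told apart.

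Reference sequence just upstream of the start site is shown for the 4 members with the smallest p values and for Cpt1a, the entry enzyme that is set against Cpt2 in the next paragraphs. Each window runs from 250 bases before to 50 bases after the start site (RefSeq, GRCm38.p6, the build also called mm10), and 27 of the 32 members had one. Capitals mark AGGTCA, the core site of nuclear receptors, on either strand. The windows are Cpt1a at chr19:3323051-3323350 (plus strand), Cpt2 at chr4:107923540-107923839 (minus strand), Ehhadh at chr16:21787785-21788084 (minus strand), Pdk4 at chr6:5496229-5496528 (minus strand) and Ppargc1a at chr5:51567676-51567975 (minus strand).
Cpt1a: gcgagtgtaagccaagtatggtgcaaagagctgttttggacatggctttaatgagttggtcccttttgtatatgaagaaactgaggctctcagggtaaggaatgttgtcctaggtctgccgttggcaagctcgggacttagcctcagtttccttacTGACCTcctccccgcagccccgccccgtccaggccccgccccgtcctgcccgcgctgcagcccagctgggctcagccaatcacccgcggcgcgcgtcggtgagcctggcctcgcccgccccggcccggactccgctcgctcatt
Cpt2: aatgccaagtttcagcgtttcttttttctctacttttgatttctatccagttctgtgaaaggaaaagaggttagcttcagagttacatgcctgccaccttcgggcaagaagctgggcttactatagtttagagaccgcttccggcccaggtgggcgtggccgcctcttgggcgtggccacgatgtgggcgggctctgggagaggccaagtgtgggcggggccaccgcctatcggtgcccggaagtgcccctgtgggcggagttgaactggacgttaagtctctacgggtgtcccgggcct
Ehhadh: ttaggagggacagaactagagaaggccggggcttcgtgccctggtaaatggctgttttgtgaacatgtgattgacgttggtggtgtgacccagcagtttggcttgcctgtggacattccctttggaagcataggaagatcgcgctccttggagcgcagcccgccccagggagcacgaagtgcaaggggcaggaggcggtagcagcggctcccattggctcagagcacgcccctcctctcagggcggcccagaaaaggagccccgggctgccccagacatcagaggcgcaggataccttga
Pdk4: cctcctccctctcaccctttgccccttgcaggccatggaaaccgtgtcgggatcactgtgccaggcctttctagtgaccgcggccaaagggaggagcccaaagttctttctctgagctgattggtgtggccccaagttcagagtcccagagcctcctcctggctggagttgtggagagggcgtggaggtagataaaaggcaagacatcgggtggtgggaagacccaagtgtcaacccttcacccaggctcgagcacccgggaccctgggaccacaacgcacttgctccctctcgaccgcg
Ppargc1a: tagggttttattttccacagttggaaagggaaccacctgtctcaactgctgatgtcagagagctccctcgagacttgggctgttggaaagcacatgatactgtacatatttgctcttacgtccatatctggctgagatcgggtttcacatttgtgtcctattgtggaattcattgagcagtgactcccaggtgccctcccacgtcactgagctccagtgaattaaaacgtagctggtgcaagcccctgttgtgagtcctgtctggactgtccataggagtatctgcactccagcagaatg

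The core site AGGTCA stood in the windows of 4 of 27 members, Acadm, Acadvl, Cpt1a and Echs1, and in 16.3% of all 32851 windows of that length. The PPAR element in its spaced form, AGGTCANAGGTCA, which holds that core site at both ends, was in none of the 27 and in 0.0396% of all windows. The looser form AGGNCANAGGNCA was likewise in none, against 0.381% of all windows, and so was TNAAGGTCA, an element of estrogen-related receptors that also contains the core site, against 1.28%. Both strands were searched. The windows of the members with the smallest p values held none of these letters, which says only that they are not in these 300 bases.

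**Figure D1:**
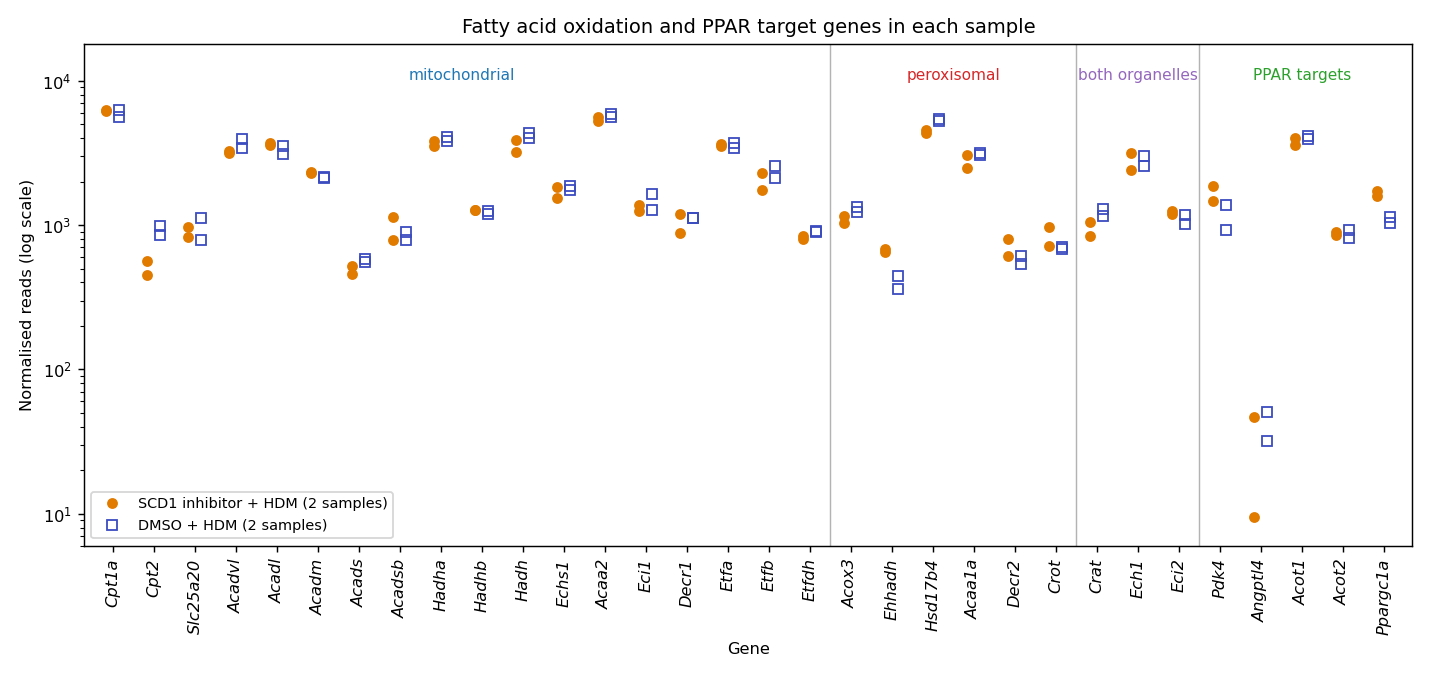
Normalised reads of the 32 genes in each of the 4 samples, on a log axis, with the inhibitor samples as filled circles and the DMSO samples as open squares, grouped by compartment. Most genes lie at nearly the same height in both groups, Cpt2 is lower and Ehhadh, Pdk4 and Ppargc1a are higher with the inhibitor, and Angptl4 is near the bottom of the scale.

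None of the 3 fatty acid import genes was called, and Cpt2 had the smallest p of all 32 members. Cpt1a, the outer membrane acyltransferase and the regulated entry point of the pathway, had 6129 and 6292 normalised reads with the inhibitor and 5640 and 6277 with DMSO. The groups overlapped, and the log2 fold change of 0.061 ± 0.11 (SE) had a 95% interval of -0.19 to 0.31 in limma. Cpt2 (chromosome 4, 107903981 to 107923610, minus strand, mm10), the inner acyltransferase that hands the fatty acid back to CoA, had 568 and 450 normalised reads with the inhibitor and 853 and 989 with DMSO. Both inhibitor samples lay below both DMSO samples. The log2 fold change of Cpt2 was -0.83 ± 0.23 (SE), a 1.78-fold lower level, with an adjusted p of 0.107 in limma, 0.0734 in DESeq2 and 0.197 in edgeR. With each sample left out in turn it lay between -0.99 and -0.67. Slc25a20, the carrier that moves acylcarnitine across the inner membrane, had 822 and 972 normalised reads with the inhibitor and 790 and 1111 with DMSO, with the inhibitor samples inside the range of the DMSO samples.

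The acyl-CoA dehydrogenases, which take the first step of each cycle and are named for the chain length they prefer, differed by little and in both directions. Acadl, the long-chain enzyme, had 3612 and 3680 normalised reads with the inhibitor and 3129 and 3512 with DMSO (log2 fold change 0.14 ± 0.13). Acads, the short-chain enzyme, had 456 and 521 normalised reads with the inhibitor and 553 and 582 with DMSO (-0.21 ± 0.25). Neither pair of groups overlapped, but both differences were about the size of their standard error or smaller. The very-long-chain enzyme Acadvl (-0.20 ± 0.13), the medium-chain Acadm (0.12 ± 0.14) and Acadsb (0.15 ± 0.22), which acts on branched short chains, had adjusted p values of 0.551, 0.753 and 0.821 in limma. As levels per length, Acadl averaged 73.7 ± 1.01 RPKM (reads per kilobase of transcript, scaled to library size) with the inhibitor and 67.0 ± 6.22 with DMSO (SD, n = 2 each). It was the highest of the 5, and Acadsb was the lowest, at 6.11 ± 1.57 and 5.38 ± 0.432 RPKM.

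The later steps of the cycle were close to level between the groups. Acaa2, the mitochondrial thiolase that releases acetyl-CoA, was the most abundant of the 32 genes per length, at 139 ± 5.86 RPKM with the inhibitor and 147 ± 7.55 with DMSO (SD, n = 2 each). It had 5260 and 5581 normalised reads with the inhibitor and 5586 and 5913 with DMSO, and the higher inhibitor sample came just short of the lower DMSO sample. Hadh, the dehydrogenase for medium and short chains, had the largest difference of this step, with 3861 and 3187 normalised reads with the inhibitor and 4001 and 4326 with DMSO (log2 fold change -0.24 ± 0.13, adjusted p = 0.451 in limma). The groups did not overlap, and the gap between the inhibitor samples was larger than the difference between the group means. Echs1, the short-chain hydratase, had a log2 fold change of -0.096 ± 0.16 with overlapping groups.

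Hadha and Hadhb encode the 2 subunits of the mitochondrial trifunctional protein. Their start sites in RefSeq lie head to head on chromosome 5, 273 bases apart. Hadha had 3801 and 3558 normalised reads with the inhibitor and 4090 and 3854 with DMSO, and Hadhb had 1279 and 1270 with the inhibitor and 1192 and 1251 with DMSO. Hadha was a little lower and Hadhb a little higher with the inhibitor, at log2 fold changes of -0.11 ± 0.12 and 0.061 ± 0.17. Within a library the ratio of Hadha to Hadhb, taken per length, was 1.52 and 1.43 with the inhibitor and 1.75 and 1.57 with DMSO. Of the transcript sequence of Hadhb, 18.1% of 50-base stretches also stand in the annotated gene Gm13910, so reads there may have been shared.

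Eci1 and Decr1, which rearrange the double bonds of unsaturated fatty acids so that mitochondria can oxidise them, both had a log2 fold change of -0.13 (SE 0.18 and 0.20). Eci1 had 1257 and 1384 normalised reads with the inhibitor and 1269 and 1641 with DMSO, with overlap. The electron transfer flavoprotein subunits Etfa and Etfb came next after Acaa2 in level per length. Etfa had 3623 and 3512 normalised reads with the inhibitor and 3398 and 3721 with DMSO, which placed the inhibitor samples inside the DMSO range (log2 fold change 0.0046 ± 0.13). Etfb had 1762 and 2303 normalised reads with the inhibitor and 2113 and 2552 with DMSO (-0.20 ± 0.17, overlapping), and 43.8% of its 50-base stretches are shared with the annotated gene Gm45233, with which it overlaps. Etfdh, the enzyme that passes the electrons to ubiquinone, had -0.12 ± 0.20.

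Taken by compartment, the median log2 fold change was -0.10 over the 18 mitochondrial genes and 0.042 over the 6 peroxisomal genes. Of the mitochondrial genes 12 were negative and 6 positive, and of the peroxisomal genes 3 were negative and 3 positive, where 49.3% of all tested genes were negative. The peroxisomal median rested on single samples: it was -0.057 without inhibitor replicate 1 and 0.22 without inhibitor replicate 2. The mitochondrial median stayed negative with each sample left out but changed in size. It was -0.051 without inhibitor replicate 1 and -0.056 without DMSO replicate 2. The mitochondrial genes together took 0.165% and 0.165% of all normalised reads with the inhibitor and 0.167% and 0.178% with DMSO. The peroxisomal genes took 0.0429% and 0.0388% with the inhibitor and 0.0443% and 0.0437% with DMSO. In both compartments the inhibitor samples had the lower summed share without overlap, by no more than the gap between samples of one group.

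**Figure D2:**
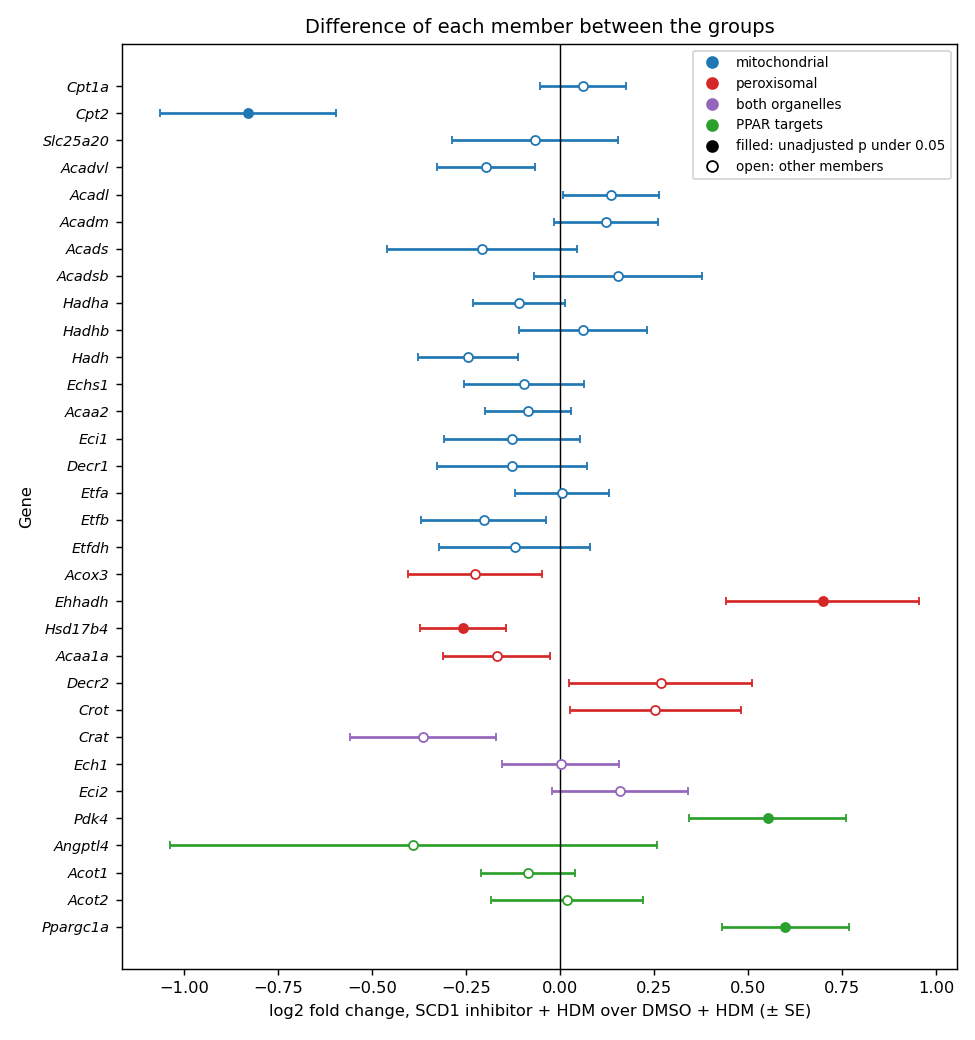
Log2 fold change of each of the 32 genes, inhibitor over DMSO, with bars of 1 SE from limma, coloured by compartment; filled points have an unadjusted p under 0.05. The mitochondrial genes other than Cpt2 lie between -0.24 and 0.15, while the peroxisomal Ehhadh and Hsd17b4 lie on opposite sides of 0.

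None of the 6 peroxisomal enzymes was called. In limma 2 of them, Ehhadh and Hsd17b4, had an unadjusted p under 0.05, as did 14.1% of all tested genes. These 2 enzymes carry out the same steps on different substrates. Ehhadh (chromosome 16, 21761287 to 21787807, minus strand), the L-bifunctional enzyme and a well known PPAR alpha target in mouse liver, had 649 and 678 normalised reads with the inhibitor and 361 and 441 with DMSO. Both inhibitor samples were above both DMSO samples, and the log2 fold change was 0.70 ± 0.26 (SE), a 1.62-fold higher level (adjusted p = 0.233 in limma, 0.242 in DESeq2 and 0.297 in edgeR). Hsd17b4 (chromosome 18, 50128201 to 50196269, plus strand), the D-bifunctional enzyme that handles branched and very long chains, had 4538 and 4360 normalised reads with the inhibitor and 5394 and 5254 with DMSO. Here the inhibitor samples were the lower ones, by a log2 fold change of -0.26 ± 0.12 (adjusted p = 0.336 in limma). With each sample left out, Ehhadh lay between 0.56 and 0.83 and Hsd17b4 between -0.29 and -0.23.

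Ratios within a library do not depend on how libraries are scaled. Per length, the ratio of Ehhadh to Hsd17b4 was 0.129 and 0.140 with the inhibitor and 0.0602 and 0.0756 with DMSO, a log2 difference of 0.99. The ratio of Cpt2 to Cpt1a was 0.169 and 0.130 with the inhibitor and 0.275 and 0.287 with DMSO, a log2 difference of -0.92. In both ratios the groups did not overlap. The exact permutation test gave p = 0.333 (two-sided), the smallest that 2 samples against 2 can reach, so it cannot decide here. Each of these pairs holds a member already named for its small p, so their separation is no added evidence. The ratios of Etfa to Etfb (log2 difference 0.21), Acot1 to Acot2 (-0.11) and Pdk4 to Ppargc1a (-0.048) had overlapping groups. All pairs were picked after their values were seen, so the differences are given as a description.

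**Figure D3:**
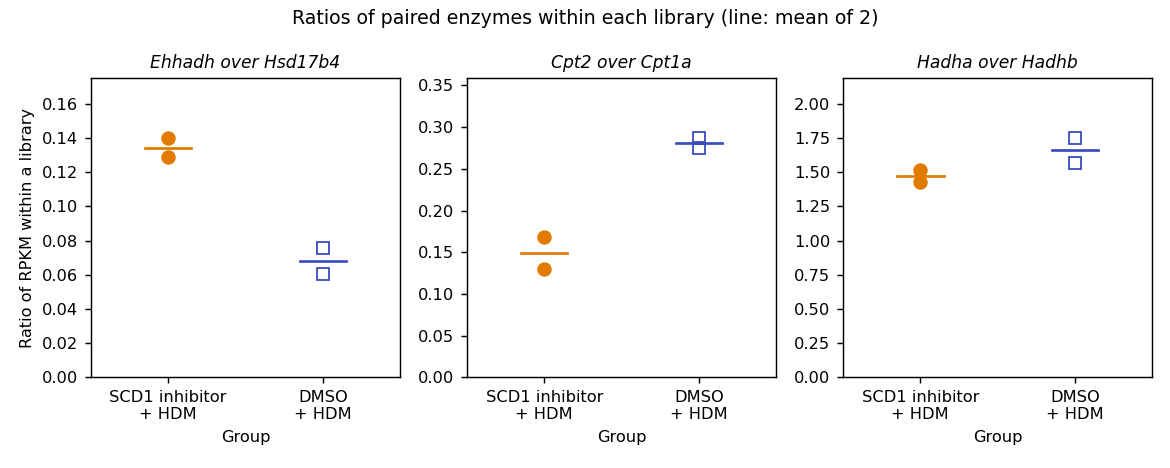
Ratios of RPKM within each library for 3 pairs of enzymes, with the inhibitor samples on the left and the DMSO samples on the right; the lines are means of 2 samples and every axis starts at 0. Ehhadh over Hsd17b4 averaged 0.134 with the inhibitor and 0.0679 with DMSO, Cpt2 over Cpt1a averaged 0.149 and 0.281, and Hadha over Hadhb averaged 1.47 and 1.66.

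The other peroxisomal enzymes showed small differences. Acox3, an oxidase for branched chains, had 1034 and 1152 normalised reads with the inhibitor and 1326 and 1238 with DMSO, without overlap (log2 fold change -0.23 ± 0.18). Acaa1a, the peroxisomal thiolase, had 3074 and 2492 with the inhibitor and 3164 and 3066 with DMSO, with 1 inhibitor sample inside the DMSO range (-0.17 ± 0.14). Of its 50-base stretches, 12.4% are shared with its neighbour Acaa1b. Decr2, the peroxisomal reductase for unsaturated chains (0.27 ± 0.24), and Crot, which loads the shortened chains onto carnitine (0.25 ± 0.23), were positive, with the highest value in inhibitor replicate 1. Crot had 975 normalised reads in that sample and 714 in inhibitor replicate 2, against 706 and 687 with DMSO, and its log2 fold change without inhibitor replicate 1 was 0.036.

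Of the enzymes found in both organelles, Crat, the carnitine acetyltransferase that buffers acetyl-CoA, had 1055 and 844 normalised reads with the inhibitor and 1161 and 1287 with DMSO. The groups did not overlap, and the log2 fold change of -0.36 ± 0.19 had an adjusted p of 0.432 in limma. Ech1, an isomerase for dienoyl-CoA, was the most abundant of the 3 per length and had 2427 and 3169 normalised reads with the inhibitor and 2564 and 2993 with DMSO. Its log2 fold change was 0.0016 ± 0.16, and the inhibitor samples lay on either side of both DMSO samples. Eci2, an enoyl-CoA isomerase, had 0.16 ± 0.18.

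None of the 5 PPAR targets and coactivator genes was called. An unadjusted p under 0.05 in limma was found for 2 of them, Ppargc1a and Pdk4, and for 14.1% of all tested genes. Ppargc1a (chromosome 5, 51454250 to 51567726, minus strand), the coactivator PGC-1 alpha that drives mitochondrial genes with PPARs and estrogen-related receptors, had 1713 and 1601 normalised reads with the inhibitor and 1027 and 1146 with DMSO. Both inhibitor samples were above both DMSO samples. The log2 fold change was 0.60 ± 0.17 (SE), a 1.51-fold higher level, with an adjusted p of 0.108 in limma, 0.0758 in DESeq2 and 0.202 in edgeR, and it lay between 0.52 and 0.68 with each sample left out. Pdk4 (chromosome 6, 5483351 to 5496309, minus strand), the kinase that shuts pyruvate dehydrogenase when fatty acids are burned, had 1875 and 1473 normalised reads with the inhibitor and 1376 and 920 with DMSO.

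The groups did not overlap for Pdk4, but its higher DMSO sample came close to its lower inhibitor sample. The log2 fold change was 0.55 ± 0.21 (adjusted p = 0.247 in limma). It was 0.84 without DMSO replicate 1, where Pdk4 was called (adjusted p = 0.0143), 0.27 without DMSO replicate 2, and 0.38 and 0.72 without inhibitor replicates 1 and 2. Among all settings tried its adjusted p ranged from 0.0143 to 0.805.

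The other 3 genes of this group had an unadjusted p above 0.05 in limma. Angptl4, a secreted inhibitor of lipoprotein lipase and a sensitive PPAR target in many tissues, was scarce, with 46.8 and 9.44 normalised reads with the inhibitor and 50.7 and 31.7 with DMSO. Its samples overlapped and its log2 fold change of -0.39 ± 0.65 was 0.13 without inhibitor replicate 2, so no direction can be given at this depth. Acot1 and Acot2, thioesterases that release fatty acids from CoA and are PPAR alpha targets in mouse liver, had log2 fold changes of -0.085 ± 0.13 and 0.019 ± 0.20. Acot1 had 3588 and 4041 normalised reads with the inhibitor and 3935 and 4146 with DMSO. The 2 genes are near copies, with 24.6% of the 50-base stretches of Acot2 also in Acot1, and how such reads were assigned is not stated.

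**Figure D4:**
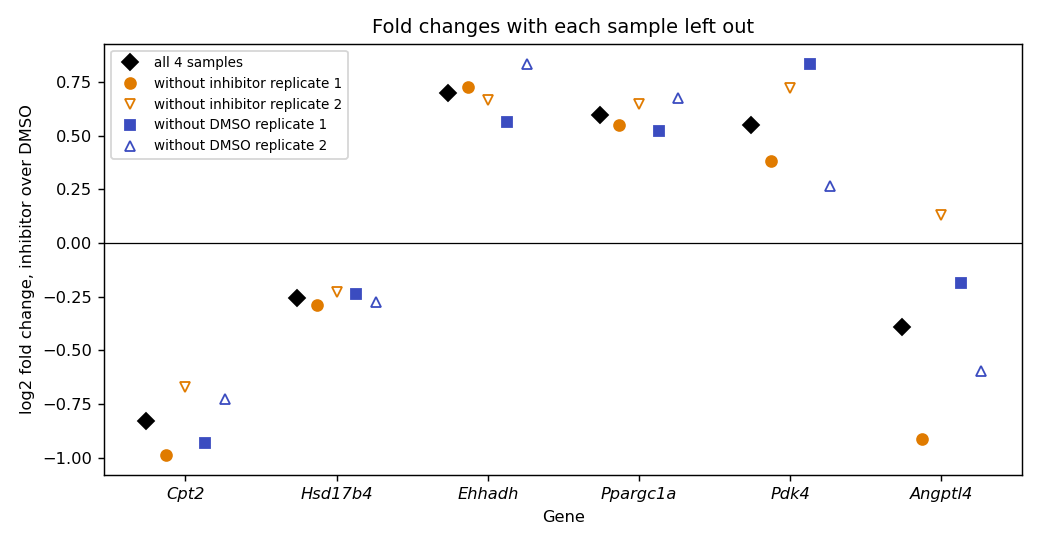
Log2 fold change, inhibitor over DMSO, of 6 genes with all 4 samples and with each sample left out in turn. Cpt2 and Hsd17b4 stay below 0 and Ehhadh, Ppargc1a and Pdk4 above it in all 5 fits, Pdk4 ranges from 0.27 to 0.84, and Angptl4 changes sign.

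The differences of the members were also set against the gaps between replicates. In 18 of 32 members, 8 higher and 10 lower with the inhibitor, the 2 groups were fully separated, against 44.9% of all tested genes (22.7% higher and 22.2% lower). In 10 of 32 members the difference between the groups was larger than the gap between the samples of either group, against 31.8% of all tested genes. The median gap between the samples of a group, on the log2 scale, was 0.16 for the inhibitor and 0.15 for DMSO over the members, and 0.20 and 0.26 over all tested genes. The members were mostly well expressed: 26 of 32 were above the median level of 9.99 RPKM over 13620 tested genes with a known transcript length, and their own median was 24.6 RPKM.

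**Figure D5:**
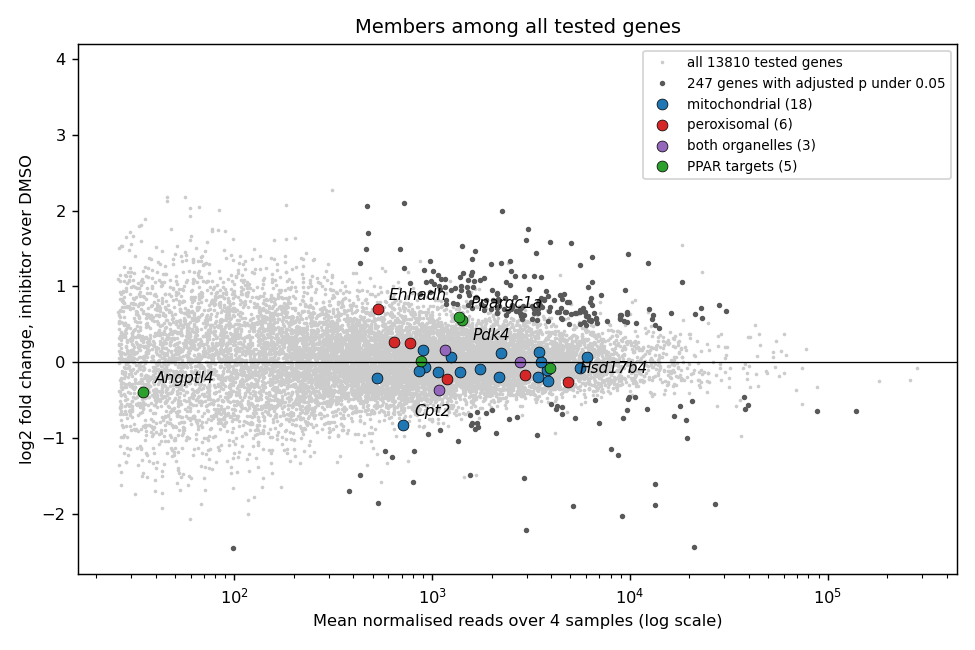
Log2 fold change against mean normalised reads (log axis) for all 13810 tested genes, with the 247 called genes in dark grey and the 32 members in colour by compartment. The members lie within the grey cloud, and the ones nearest its edge are Cpt2 below 0 and Ehhadh, Ppargc1a and Pdk4 above it.

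Other genes of the pathway were followed in 5 lists, and 0 of their tested genes were called by limma. The PPARs with their partners, coregulators and upstream enzymes had 22 tested genes, with 3 higher and 4 lower at an unadjusted p under 0.05, where 8.16% and 5.92% of all tested genes were. The 2 of smallest p were Acaca, which makes malonyl-CoA, and the corepressor gene Ncor1. Acaca had 2513 and 2075 normalised reads with the inhibitor and 3653 and 3195 with DMSO (log2 fold change -0.58 ± 0.15, adjusted p = 0.0681). Ncor1 had 6751 and 7401 with the inhibitor and 6165 and 4796 with DMSO (0.38 ± 0.13, adjusted p = 0.211). Its log2 fold change was 0.56 without DMSO replicate 1 (adjusted p = 0.00793) and 0.20 without DMSO replicate 2 (adjusted p = 0.432). DESeq2 called Acaca (adjusted p = 0.0194), and so did limma without DMSO replicate 2 (adjusted p = 0.0263), while with each sample left out the value lay between -0.71 and -0.44.

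The 3 receptors did not differ in one direction. Ppara had 701 and 641 normalised reads with the inhibitor and 941 and 789 with DMSO (log2 fold change -0.35 ± 0.22, adjusted p = 0.518). Ppard had 685 and 643 with the inhibitor and 939 and 910 with DMSO (-0.46 ± 0.21, adjusted p = 0.340), also without overlap. Pparg had 482 and 324 with the inhibitor and 343 and 196 with DMSO, with overlap (0.56 ± 0.36, adjusted p = 0.531).

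Of 31 further PPAR targets, 19 were tested, with a median log2 fold change of -0.055. An unadjusted p under 0.05 in limma was found for 14.1% of all tested genes and for 1 of these 19 (5.26%). That gene was Acsl3, which activates fatty acids to acyl-CoA, with 9123 and 7961 normalised reads with the inhibitor and 7039 and 6919 with DMSO (0.29 ± 0.11, adjusted p = 0.274). The next was the mitochondrial carrier Ucp2 (-0.23 ± 0.13, adjusted p = 0.472). It rested on single samples: it was -0.41 and called without DMSO replicate 1 (adjusted p = 0.0411), and -0.043 without DMSO replicate 2 (adjusted p = 0.892). The liver-type targets Cyp4a10, Cyp4a14, Cyp4a31, Creb3l3 and Fabp1 had 0 reads in all 4 libraries, which allows up to 3 reads in each and covers counting error only.

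The other mitochondrial acyl-CoA enzymes had 27 tested genes with a median log2 fold change of -0.062. At an unadjusted p under 0.05 in limma 2 were higher and 3 lower, where 8.16% and 5.92% of all tested genes were. Those of smallest p were the thioesterase gene Acot7, whose main protein form is cytosolic, and Mmut, the mutase that ends propionate breakdown. Acot7 had 1873 and 1991 normalised reads with the inhibitor and 2690 and 2911 with DMSO (-0.53 ± 0.14, adjusted p = 0.0813), and Mmut had 2904 and 2635 with the inhibitor and 2079 and 1851 with DMSO (0.49 ± 0.14, adjusted p = 0.121). DESeq2 called Acot7 (adjusted p = 0.0342). Both were called without DMSO replicate 1 (adjusted p = 0.0269 and 0.0276) and not with any other sample left out.

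The other peroxisomal enzymes and carriers had 26 tested genes with a median of 0.073. At an unadjusted p under 0.05 in limma 2 were higher and 3 lower, where 8.16% and 5.92% of all tested genes were. Mgst1, a membrane-bound glutathione transferase, had 4566 and 3000 normalised reads with the inhibitor and 6075 and 5696 with DMSO (-0.66 ± 0.17, adjusted p = 0.0633). DESeq2 called it (adjusted p = 0.0102), as did the fits without DMSO replicate 1 (0.0456) and without DMSO replicate 2 (0.0384). The value was -0.36 without inhibitor replicate 2 (adjusted p = 0.806) and -0.97 without inhibitor replicate 1 (adjusted p = 0.102), so its size rested on which inhibitor sample was kept. Nudt19, a peroxisomal hydrolase of CoA, had 162 and 127 with the inhibitor and 392 and 333 with DMSO, a 2.28-fold lower level (-1.19 ± 0.36, adjusted p = 0.135). None of 19 peroxisome biogenesis genes had an unadjusted p under 0.05 in limma. The ones of smallest p were Pex11a, a gene of peroxisome division (0.32 ± 0.18, adjusted p = 0.442), and the import receptor gene Pex19 (-0.28 ± 0.17, adjusted p = 0.510).

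Markers of some of the cell types that differ in lipid handling were also unequal between the groups. The summed values overlapped between the groups for club, ciliated, macrophage and monocyte, endothelial, and fibroblast and smooth muscle markers. The part of any cell type in the values of the members was not tested. Of 11 alveolar type 2 markers, 10 were lower with the inhibitor and 5 were called by limma. Over all tested genes, 49.3% were lower and 1.79% were called by limma. Abca3 had the smallest edgeR adjusted p of the 11 markers, 0.0962, and 1.39e-07 in DESeq2. The summed value of the 11 was 286065 to 345838 normalised reads with the inhibitor, against 438141 to 495642 with DMSO. All 10 club cell markers were lower and 5 were called, with sums of 464485 to 672822 with the inhibitor, against 669452 to 768197 with DMSO, which overlap. Of 4 tested basal cell markers all were lower, with a median log2 fold change of -1.40. Of these, 3 had an unadjusted p under 0.05 in limma, as did 14.1% of all tested genes, and 0 were called by limma. DESeq2 called Krt5 (adjusted p = 0.0311) and Aqp3 (0.0292) but not Krt15 (0.559). The basal sums were 901 to 2990 with the inhibitor, against 3733 to 5126 with DMSO. Of 10 ciliated cell markers 7 were higher and 1, Ccdc39, was called, with sums of 503298 to 519870 with the inhibitor, against 494720 to 505050 with DMSO. Of 7 tested alveolar type 1 markers 5 were lower and 1, Aqp5, was called, with sums of 12342 to 13258 with the inhibitor, against 13869 to 15627 with DMSO. Of 8 tested macrophage and monocyte markers 5 were higher and 0 were called by limma, with 0 at an unadjusted p under 0.05, and the sums of all 10 were 2599 to 4863 with the inhibitor, against 1507 to 4374 with DMSO. Of 7 tested endothelial markers 6 were lower and 0 were called by limma, with 1, Kdr, at an unadjusted p under 0.05. Their sum was 4386 to 5997 with the inhibitor, against 4237 to 12577 with DMSO, the higher value in DMSO replicate 2. All 8 fibroblast and smooth muscle markers were positive and 0 were called (2 at an unadjusted p under 0.05 in limma), with sums of 4902 to 5768 with the inhibitor, against 2565 to 5875 with DMSO. Of the eosinophil and neutrophil markers, Prg2, Ccr3, S100a8, S100a9 and Ly6g had 0 reads in all 4 libraries. Siglecf was low in every library, with 29.6 and 14.7 normalised reads with the inhibitor and 53.6 and 72.3 with DMSO. It was not called by limma (adjusted p = 0.551). Epx had 17.2 normalised reads in inhibitor replicate 1 and 0 in the other samples.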

How the data were processed

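The deposited signal values were 1 table of read counts per gene divided by a size factor per library, as read from the values: every value was a whole multiple of the value of 1 read in its library (100% within 0.01 of a whole number). For DMSO replicate 2 that step lies within 1% of 1, so its unit rests on the multiples and on its size factor. The library kit keeps strand, per the labels' protocols. HOMER, DESeq2 and mm10 are named in the submitters' processing notes. The aligner and the strand setting of the counting are stated nowhere in the sources used here. On the opposite strand, 9 members share exon bases with another gene: Acadvl, Hadha, Echs1, Etfdh, Acox3, Acaa1a, Crot, Crat and Eci2. The most were 1151 bases of Acadvl with Dvl2, and Acox3 shares 700 with an antisense gene. Whether reads of those genes were counted in these members was not tested.

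Values were tested as log2(value + 25.8) with limma 3.58.1 (R 4.3.3), with an intensity trend, the group as the only term and Benjamini-Hochberg adjustment over 13810 genes with a mean of at least 25.8, which left out 11314. Intervals and standard errors come from that fit, with 11.2 prior degrees of freedom. Recovered reads were tested with edgeR 4.0.16 and DESeq2 1.42.0 as alternatives. At the floor, counting error of 1 library is 19.7%. RPKM used the principal transcript length in GENCODE M21 (mm10). Scripts were tested on simulated data. Python 3.11.15 made tables and figures.

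Members and lists were chosen with earlier results of these data known. Values in every sample were given for members with an unadjusted p under 0.05, the largest difference and highest level per length of each role, and Cpt1a, Pdk4, Angptl4 and Ppargc1a; from each other list, genes called or else the 2 of smallest p were named. Other genes and samples' values, Ppara, Ppard and Pparg, the cell type markers, the ratios and the genes of the closing section were named after values were seen. One symbol of the other lists was not matched. Alternatives were other pseudocounts, floors and scalings, no trend, a replicate block, the count tests, and leaving out each sample.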

Additional observations from a re-analysis of the deposited data

How the results depend on the processing

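The precision is limited by having 2 samples a group, and for Angptl4 also by its low read number. The number of called genes, 247, was 674 with the replicate block, 64 with no floor, 10 in edgeR, 477 in DESeq2 and 0 without the intensity trend in limma (1423 at an unadjusted p under 0.05). It ranged from 5 to 795 with each sample left out, where the lone sample of a group is assumed to vary like the other pair. Called members were 2 with the replicate block and 0 or 1 with a sample left out. Replicate numbers share no stated source, and differences between replicates 1 and 2 correlated at r = 0.0734 between the groups across genes, so the block was not used; with it Cpt2 (adjusted p = 0.0241) and Ppargc1a (0.0298) were called, as were Acaca, Acot7, Mmut and Mgst1. With a sample left out, the mitochondrial median ranged from -0.11 to -0.051 and the peroxisomal median from -0.057 to 0.22. Of 447 member values under 14 alternatives, 425 kept their sign and their side of the threshold, 3 became called (Cpt2, Ppargc1a and, without DMSO replicate 1, Pdk4) and 19 changed sign, in 11 members that were not called in any fit. With TMM scaling Etfa had -0.0059 and Ech1 -0.0088, and in edgeR -0.0081 and -0.0026. With a sample left out, the lowest and highest values were -0.061 and 0.070 for Etfa, -0.19 and 0.19 for Ech1, -0.015 and 0.14 for Cpt1a, -0.31 and 0.17 for Slc25a20, -0.11 and 0.41 for Acadsb, -0.22 and 0.029 for Echs1, -0.31 and 0.055 for Eci1, -0.34 and 0.086 for Decr1, -0.91 and 0.13 for Angptl4, -0.17 and 0.00056 for Acot1 and -0.078 and 0.12 for Acot2. The cause was not tested.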

Other observations

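Ketone bodies are another fuel that yields acetyl-CoA, and 3 genes of their use, measured as part of the other lists, were singled out after their values were seen. Oxct1, the enzyme that activates ketone bodies for use, had 8662 and 9118 normalised reads with the inhibitor and 7651 and 8719 with DMSO, with overlap (log2 fold change 0.12 ± 0.11, limma adjusted p = 0.691). Acat1, a mitochondrial thiolase, had 3291 and 3589 normalised reads with the inhibitor and 3323 and 3649 with DMSO, also with overlap (-0.019 ± 0.13). Bdh1, a dehydrogenase that interconverts ketone bodies, had 330 and 312 normalised reads with the inhibitor and 262 and 434 with DMSO, so the DMSO samples lay on either side of both inhibitor samples.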
